A study of Mus musculus with 2 samples.

Results

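The miR-17-92 and miR-106b-25 clusters are paralogous groups of microRNA genes that are each transcribed as a single primary RNA and cut into several mature microRNAs. Their 9 mature products, together with miR-106a-5p from a further paralogous cluster, miR-106a-363, were taken by miRBase accession from the array table, which gives 10 of its 739 probes. The table pairs no accession with a name, so the names of these 10 rest on the list of members by which they were chosen, and the sequences were then found by those names. All 10 had a value on both arrays, and none lay in a row shared by several accessions.

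LY-1 is a metastatic mouse keratinocyte line derived from Pam212. Pam212 is a non-metastatic epidermal keratinocyte line of Balb/c strain that transformed spontaneously. Both were grown to confluency in DMEM with serum and left untreated, and both lines share the Pam212 background and its transformation. Each line gave 1 plate and 1 Hy5-labelled array of total RNA, so there was no replicate of either line. The differences below therefore carry no p-value, and a single derivative line cannot stand for metastatic cells in general. Keratinocyte markers could not be checked, because no source used here names the other probes.

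MicroRNAs guide Argonaute proteins to messenger RNAs, mainly through the seed, bases 2 to 8 of the mature strand, and lower the output of those messengers. The miR-17-92 cluster is known as an oncogenic cluster that MYC and E2F factors switch on in dividing cells. Its products act on messengers of the pro-apoptotic protein Bcl2l11 (Bim) and the cell cycle inhibitor Cdkn1a. The miR-106b-25 cluster lies within Mcm7, which encodes a subunit of the replicative helicase, and its products act on Cdkn1a and Bcl2l11 among others. Several members of the clusters share a seed, so they can act on the same messengers although they come from different primary transcripts.

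The mature sequences show which members share a seed and how little else separates them. They are written 5′ to 3′ from RefSeq, build GRCm38.p6, with the seed in capitals, and all 10 names matched an entry.
miR-17-5p: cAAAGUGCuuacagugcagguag
miR-20a-5p: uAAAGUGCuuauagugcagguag
miR-106a-5p: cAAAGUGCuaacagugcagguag
miR-106b-5p: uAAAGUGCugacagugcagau
miR-93-5p: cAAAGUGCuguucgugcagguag
miR-18a-5p: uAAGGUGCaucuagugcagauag
miR-19a-3p: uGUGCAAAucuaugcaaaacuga
miR-19b-3p: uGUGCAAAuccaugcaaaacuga
miR-92a-3p: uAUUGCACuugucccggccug
miR-25-3p: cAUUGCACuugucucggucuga

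The first 5 sequences share the miR-17 seed, whose matching site in a messenger reads GCACUUU. They come from all 3 clusters. miR-18a-5p has a seed of its own, matched by GCACCUU. The miR-19 seed, matched by UUUGCAC, is carried by 2 members of miR-17-92 and by no member of miR-106b-25. The miR-92 seed, matched by GUGCAAU, is shared by miR-92a-3p of miR-17-92 and miR-25-3p of miR-106b-25.

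The 6 mature strands of miR-17-92 lie on chr14:115043684-115044496 (plus strand), a stretch of 813 bases, in the order miR-17, miR-18a, miR-19a, miR-20a, miR-19b and miR-92a. The 3 of miR-106b-25 lie on chr5:138165332-138165807 (minus strand), a stretch of 476 bases inside the span of Mcm7 (chr5:138164583-138172111, minus strand), in the order miR-106b, miR-93 and miR-25. miR-106a-5p lies on chrX:52742541-52742563 (minus strand). The mature sequences of miR-19b-3p and miR-92a-3p each have a second locus on chromosome X, at chrX:52741991-52742013 and chrX:52741854-52741874. A probe for either takes RNA from both of its loci, and the 2 sources cannot be told apart.

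On these arrays the 2 clusters differed between the lines in opposite directions. All 3 members of miR-106b-25 were lower in LY-1 than in Pam212, by 1.34-fold to 1.73-fold. All 6 members of miR-17-92 and miR-106a-5p were higher in LY-1 in the deposited values, by 1.02-fold to 1.45-fold. Of the 252 probes past the brightness floor used for counts, 51.6% were higher in LY-1 by any amount and 48.4% were lower. The 48 other probes registered as early and as bright as the members leaned further to LY-1. Of these, 37 were higher, and their median log2 difference was 0.40. Both cluster medians, 0.29 for miR-17-92 and -0.68 for miR-106b-25, lay below that median. The direction of miR-19b-3p, miR-20a-5p and miR-17-5p depended on the scaling, as given below. Each difference is the log2 of the LY-1 intensity less the log2 of the Pam212 intensity, from the linear values as deposited and with no pseudocount.

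miR-25-3p (MIMAT0000652), the product of miR-106b-25 that carries the miR-92 seed, read 41.7 in LY-1, against 72.2 in Pam212. This was 1.73-fold lower in LY-1, with a log2 difference of -0.79. Of the 10 members it differed most in size between the lines. miR-106b-5p (MIMAT0000386), first in the transcript and a repressor of Cdkn1a, read 63.9 in LY-1, against 102 in Pam212. Its intensity was 1.60-fold lower in LY-1, with a log2 difference of -0.68. miR-93-5p (MIMAT0000540), which lies between them and carries the miR-17 seed, read 50.7 in LY-1, against 67.7 in Pam212. Its value was 1.34-fold lower in LY-1, with a log2 difference of -0.42. The LY-1 value was thus the lower of the pair for each product of this cluster, with a median log2 difference of -0.68.

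Within miR-17-92, miR-92a-3p had the widest difference. miR-92a-3p (MIMAT0000539) read 41.2 in LY-1, against 28.3 in Pam212, a 1.45-fold higher value and a log2 difference of 0.54. This miRNA is processed from the last hairpin of the cluster and can also come from its locus on chromosome X. miR-17-5p (MIMAT0000649), which gives the cluster its name and targets Cdkn1a, read 179 in LY-1, against 139 in Pam212, a log2 difference of 0.37. miR-18a-5p (MIMAT0000528), the member with a seed of its own, read 51.8 in LY-1, against 41.6 in Pam212, a log2 difference of 0.32. For these 3 members the LY-1 value was the higher by 1.25-fold to 1.45-fold.

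miR-20a-5p (MIMAT0000529), a near copy of miR-17-5p, read 114 in LY-1, against 95.9 in Pam212, a log2 difference of 0.26. In the deposited values the miR-19 pair differed least between the lines, whereas after quantile normalization miR-19b-3p stood at -0.37. miR-19a-3p (MIMAT0000651) read 27.3 in LY-1, against 25.1 in Pam212, a log2 difference of 0.12. miR-19b-3p (MIMAT0000513) read 156.2 in LY-1, against 153.3 in Pam212, a log2 difference of 0.027. The miR-17-92 median was 0.29, a 1.22-fold higher value in LY-1. Leaving out miR-19b-3p and miR-92a-3p, which have a second locus, left this median at 0.29 over 4 members. These were the lowest and the highest of the 6 in the deposited values, so leaving them out could not change the median. What the second loci contribute was not tested. miR-106a-5p (MIMAT0000385), the counterpart of miR-17-5p on chromosome X, read 70.5 in LY-1, against 62.6 in Pam212, a log2 difference of 0.17.

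**Figure D1:**
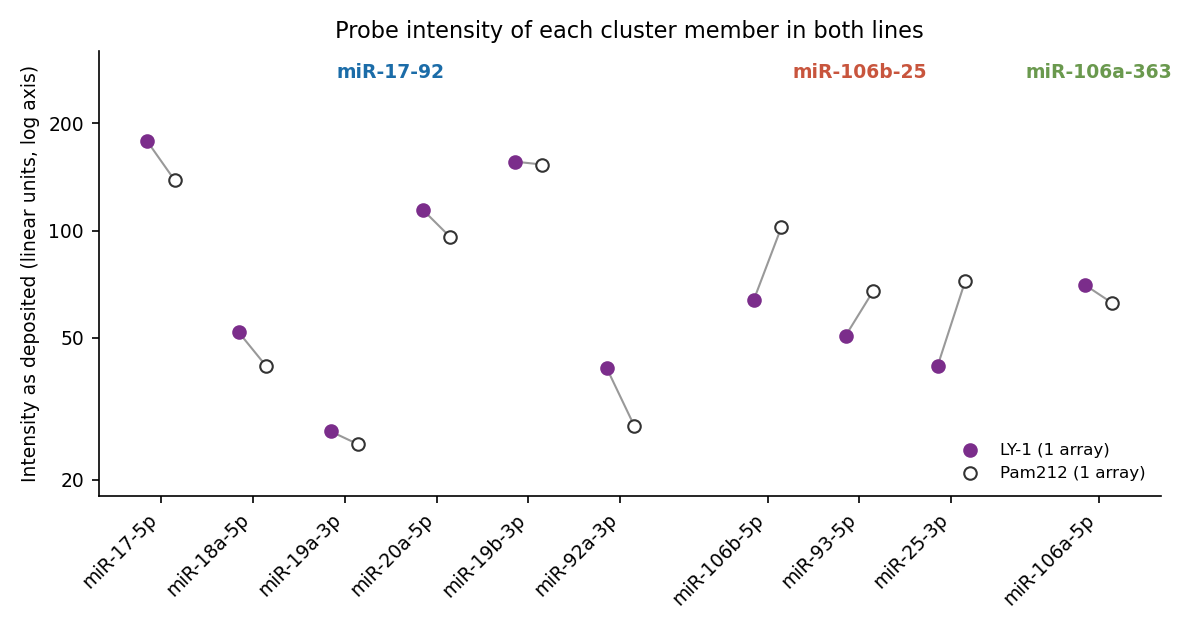
Intensity of each member as deposited (linear units on a log axis), with filled points for LY-1 and open points for Pam212, 1 array each. The LY-1 point lies below the Pam212 point for the 3 members of miR-106b-25 and above it for the other 7, only slightly so for miR-19b-3p (156.2 in LY-1, against 153.3 in Pam212).

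None of the 10 members reached a 2-fold difference in either direction. The brightness floor was 2.26 units, the median of the pooled values, and a probe passed it on its brighter array. Of the 252 probes past it, 12.7% were 2-fold or more higher in LY-1 and 6.35% were lower by as much. At 1.5-fold, 2 of the 10 members, miR-106b-5p and miR-25-3p, were lower in LY-1, and 17.1% of the 252 probes were. None of the members was at least 1.5-fold higher, against 25% of the 252 probes. A share of 2 in 10 is near the 17.1% of all probes, so it is no result about the members. The median difference over the 10 members was 0.15, beside 0.025 over the 252 probes. All members were bright, and the median was 0.13 over probes whose brighter value reached the pooled 75th percentile and 0.078 over those that reached it on both arrays.

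The members were well above the dim end of the array. The lower of the 2 values of each member was 11.1 to 67.8 times the floor of 2.26 units, and all 10 were among the 102 probes that reached 11.0 units, the 75th percentile of all values, on both arrays. Of these 102 bright probes, 10.8% were lower in LY-1 by 1.5-fold or more and 24.5% were higher by as much. The difference of miR-25-3p lay above that of 3.92% of the 102 probes, miR-106b-5p above 7.84%, and miR-93-5p above 16.7%. The 6 members of miR-17-92 lay above 47.1% to 74.5% of them, from near the middle (miR-19b-3p) to near the upper quartile (miR-92a-3p). The SD of the log2 difference over the 102 bright probes was 0.66, a spread across probes that joins measurement error and differences between the lines. The miR-25-3p difference exceeded this SD in size. That of miR-106b-5p, at -0.677, did so only narrowly, and those of the other 8 members did not. With the members left out, the SD over the 92 other bright probes was 0.682, which miR-106b-5p did not exceed.

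The members also share an early registration in miRBase, with accession numbers under 1000, and probes of that block leaned to LY-1. The 93 other probes of the block past the floor had a median log2 difference of 0.33, and 64 of them were higher in LY-1. The median of miR-17-92, 0.29, lay close to that block median, whereas the 3 products of miR-106b-25 lay below it. All the members were bright on both arrays, however. The 48 other probes of the block as bright as that had a higher median, 0.40, and 37 of them were higher in LY-1. The miR-17-92 median lay below this value, and of its members only miR-92a-3p, at 0.54, lay above it. Of all 103 probes of the block, 68.9% were higher in LY-1 by any amount and 31.1% were lower. At 1.5-fold, 10.7% of the block was lower. Among the 58 probes of the block that were bright on both arrays, 6.9% were lower by 1.5-fold or more. These were 4 probes, and 2 of these 4 were miR-106b-5p and miR-25-3p. This share counts the members themselves and was chosen after seeing the data, so it is no result about the members. The part of this lean in the members' differences was not tested.

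**Figure D2:**
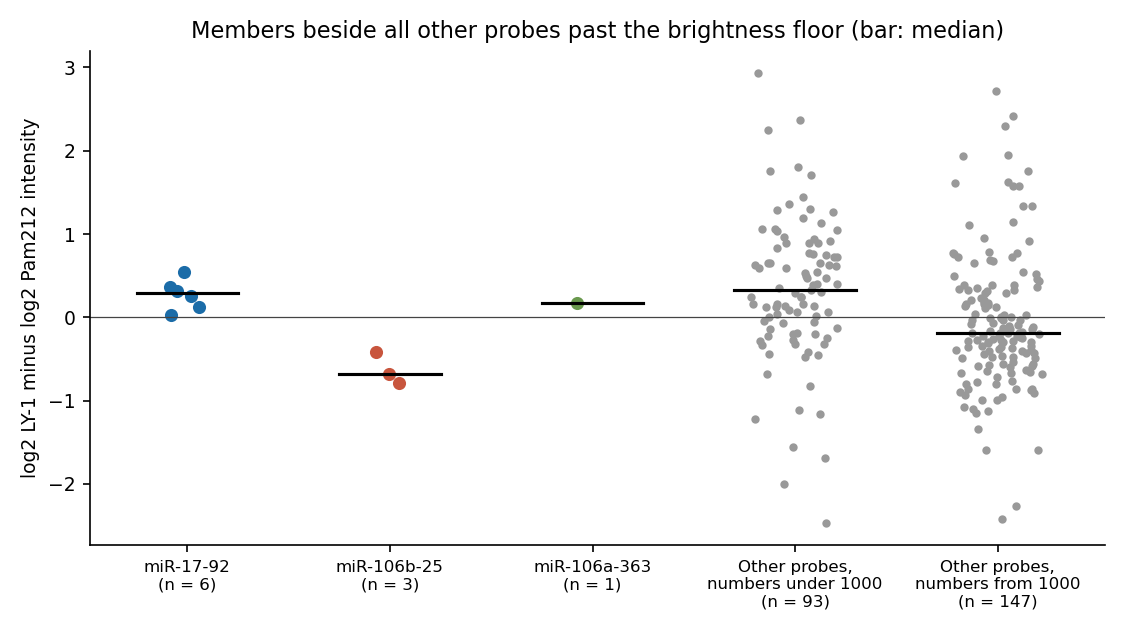
Log2 difference, LY-1 minus Pam212, of each member by cluster (coloured points) and of the other probes past the floor with 1 accession (grey points), split at accession number 1000, with bars at the medians. The 6 products of miR-17-92 lie from 0.027 to 0.54. Only miR-17-5p and miR-92a-3p lie above the median of the other early-numbered probes, 0.33. The 3 products of miR-106b-25 lie between -0.79 and -0.42.

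Grouping the members by seed mixed the 2 directions. The miR-17 seed had 5 members, with log2 differences from -0.68 to 0.37 and a median of 0.17. Its 3 members from miR-17-92 and miR-106a-363 were higher in LY-1, and its 2 members from miR-106b-25 were lower. The miR-92 seed likewise held the highest difference of the 10, 0.54 for miR-92a-3p, and the lowest, -0.79 for miR-25-3p. The pair differed from each other by 1.33 on the log2 scale, a 2.51-fold change in their ratio between the lines. The miR-19 seed, whose 2 members were both counted in miR-17-92, had a median of 0.074.

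Gaps between the log2 differences of 2 members were compared over all pairs, split by cluster and seed. In 3 pairs from the same cluster with the same seed, the median gap was 0.11. In 15 pairs from the same cluster with unlike seeds, the median gap was 0.23 and the widest was 0.51, between miR-92a-3p and miR-19b-3p. In 9 pairs with the same seed from different clusters, the median gap was 0.78, with a range from 0.085 to 1.33. The 2 narrowest of these 9 gaps, 0.085 and 0.19, were those of miR-106a-5p with miR-20a-5p and with miR-17-5p, and the other 7 all involved miR-106b-25. In 18 pairs from different clusters with unlike seeds, the median gap was 0.81. After quantile normalization the median gaps within a cluster were wider, at 0.42 with the same seed and 0.35 with unlike seeds, and the gap between miR-92a-3p and miR-19b-3p was 0.88. Between clusters they were then 0.65 with the same seed and 0.80 with unlike seeds. Pairs share members and a single array per line, so these gaps are a description of the 10 probes.

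**Figure D3:**
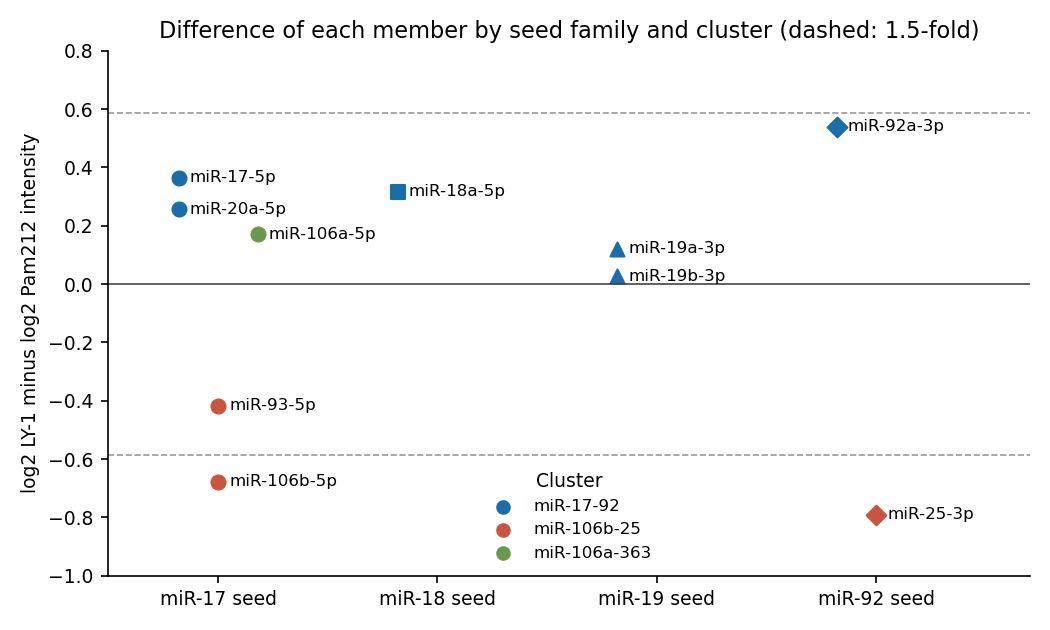
Log2 difference, LY-1 minus Pam212, of each member, placed by seed family along the horizontal axis and coloured by cluster, with dashed lines at 1.5-fold. Both seeds that occur in miR-106b-25 hold points above and below 0, and every point below 0 in these deposited values is from that cluster (miR-19b-3p and miR-20a-5p cross 0 under other scalings).

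Some of these sequences are close enough that a probe may take up RNA of its relatives, and whether the probes did so was not tested. Positions are counted from 1 at the 5′ end, with the first-named member's base first. miR-17-5p and miR-106a-5p differ at 1 base, U10A, and their log2 differences were 0.37 and 0.17. miR-19a-3p and miR-19b-3p also differ at 1 base, U11C, with log2 differences of 0.12 and 0.027. miR-17-5p and miR-20a-5p differ at 2 bases, C1U and C12U. All 3 pairs with at most 2 changes thus lay on the same side of 0 in the deposited values, though miR-19a-3p and miR-19b-3p stood at 0.16 and -0.37 after quantile normalization.

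Pairs with 3 or more changes included both like and opposite directions. miR-20a-5p and miR-106a-5p, from different clusters, differ at 3 bases (U1C, U10A and U12C) and had log2 differences of 0.26 and 0.17. miR-106b-5p and miR-93-5p, from the same cluster, differ at 5 of 21 bases and by 2 bases in length, and stood at -0.68 and -0.42. miR-92a-3p and miR-25-3p differ at 3 of the 21 aligned bases, U1C, C14U and C18U, and by 1 base in length. Their directions were opposite, at 0.54 and -0.79. miR-20a-5p and miR-106b-5p differ at 3 of 21 bases, U10G, U12C and G20A, and by 2 bases in length, and their log2 differences were 0.26 and -0.68. miR-17-5p and miR-93-5p differ at 4 bases, U10G, A11U, C12U and A13C, with log2 differences of 0.37 and -0.42. G+C content ran from 34.8% to 57.1% over the 10 members, and its Pearson correlation with the log2 difference was -0.028 (Spearman 0.13, n = 10 probes that share both arrays), given as a description.

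The promoter of Mcm7, the gene in which the 3 products of miR-106b-25 lie, is shown as background. Any link to the direction of their differences was not tested. RefSeq gives 2 promoter windows for Mcm7 in GRCm38.p6, each 300 bases, from 250 before a transcript start to 50 after it. Both of these starts lie inside the span of Mcm7 given above, so the 5′ end of that span has no window of its own. Both strands were searched for the E2F motifs TTTCGCGC and TTTGGCGC, as exact letters. The window at chr5:138171834-138172133 (minus strand, written 5′ to 3′) held TTTCGCGC at bases 267 to 274 of the window, in capitals. The match thus lies after the start of this window's transcript, not upstream of it.
Mcm7 promoter: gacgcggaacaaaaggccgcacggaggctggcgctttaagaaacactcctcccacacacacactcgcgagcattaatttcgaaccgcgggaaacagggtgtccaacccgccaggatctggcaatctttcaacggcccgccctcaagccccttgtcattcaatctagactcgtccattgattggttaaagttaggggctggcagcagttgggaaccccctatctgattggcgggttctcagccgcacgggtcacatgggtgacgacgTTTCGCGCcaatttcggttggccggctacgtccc

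Of 32851 promoter windows of this length, 0.323% held TTTCGCGC and 0.813% held either motif. The other Mcm7 window, chr5:138171217-138171516, held neither. The match describes the letters only, since no Mcm7 level or factor binding was measured here. The window listed for Mir17hg, the host gene of miR-17-92, starts within the cluster itself and was not used.

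The medians of the 2 clusters kept opposite signs under the 6 settings that were run, though not every setting could turn a sign. The direction of some single miR-17-92 members turned. Under the deposited values, 3 other scalings of the whole array, a trend correction and a pseudocount, all 3 products of miR-106b-25 were lower in LY-1, and each lay below all 7 other members. Their median ran from -0.99 to -0.67, and the miR-17-92 median ran from 0.078 to 0.29. Over these 6 settings the gap between the cluster medians was -1.07 to -0.95. Setting the median to 0 and the common 75th percentile shift all probes alike, so they could not change this gap or the order of the members. These shifts were small: the first took 0.025 from each difference, and the second left the miR-17-92 median at 0.24. A pseudocount cannot turn the sign of a difference. Quantile normalization put the medians of miR-17-92 and miR-106b-25 at 0.078 and -0.99, and the lowess trend put them at 0.14 and -0.83. Quantile normalization gave a gap of -1.07, the lowess trend -0.96 and the pseudocount -0.95. miR-92a-3p ranged from 0.40 to 0.54 and miR-18a-5p from 0.16 to 0.32. The direction of miR-19b-3p turned under 3 settings (-0.017 with a common 75th percentile, -0.37 after quantile normalization and -0.10 after a lowess trend was subtracted). That of miR-20a-5p turned under quantile normalization, at -0.16, where miR-17-5p stood at 0.00.

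**Figure D4:**
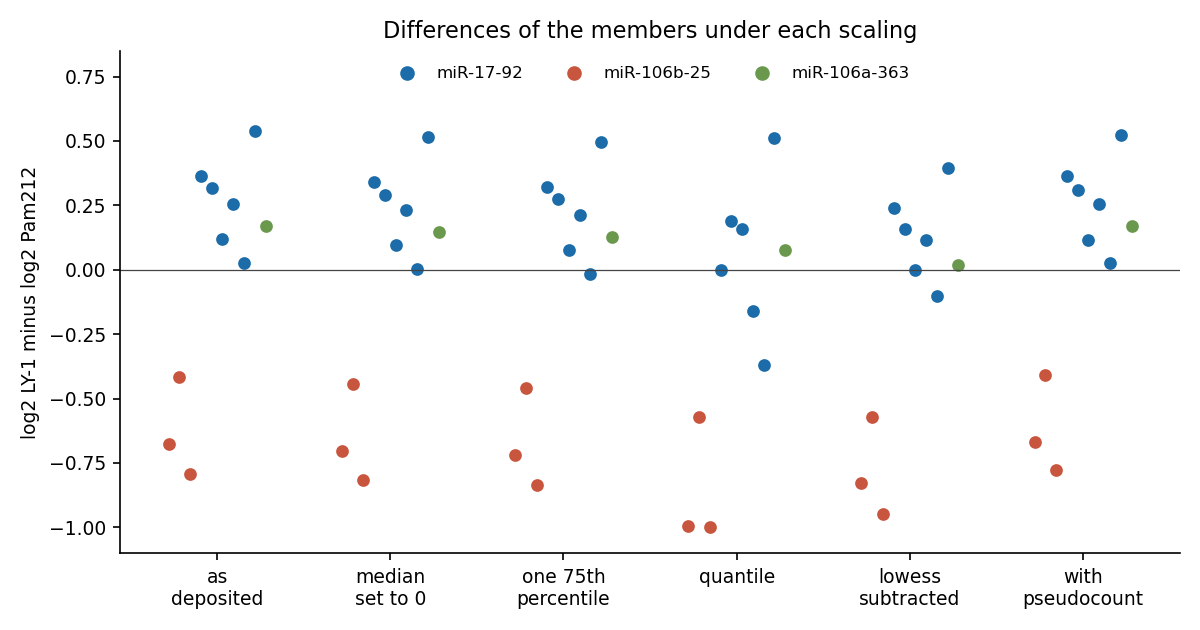
Log2 difference, LY-1 minus Pam212, of the 10 members under each of 6 settings, coloured by cluster. The points of miR-106b-25 stay below those of the other clusters throughout, and some miR-17-92 points reach or cross 0 under 3 of the settings.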

How the data were processed

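The authors deposited, for each probe, a positive intensity per array on a linear scale. Per the labels, total RNA from a column kit was labelled with Hy5 using the miRCURY LNA kit, and per the series text the arrays carried duplicate spots. Background correction, scaling and the meaning of empty cells are not given in the sources used here, so the precision of an intensity is unknown. The medians of the 354 probes measured on both arrays were 3.31 in LY-1 and 3.21 in Pam212, and no scaling was applied.

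Differences, a floor at the pooled median of 2.26 and size thresholds of 1.5-fold and 2-fold were computed with Python 3.11.15, numpy 2.4.6, pandas 2.3.3 and statsmodels 0.14.6, with figures from matplotlib 3.10.9. The code was tested on simulated data first. Alternatives set the median difference to 0, used a common 75th percentile, quantile normalization, a lowess trend (span 0.5) or a pseudocount of 1.02, left out miR-106a-5p, or changed the floor.

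The members and lists were chosen with earlier results of these data known. Chosen after seeing the data were the count of members 1.5-fold lower, the gaps between clusters and between pairs under each setting, and the share among probes past the 75th percentile on both arrays. By rule the text names all 10 members. The lists of opposite arms, seed relatives and cell type markers were not analysed here, since the RefSeq miRNA table pairs names with sequences but holds 0 of the accessions.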

Additional observations from a re-analysis of the deposited data

How the results depend on the processing

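The counts of members past 1.5-fold and 2-fold were the same under the 4 other scalings and the pseudocount, and without miR-106a-5p. After quantile normalization, however, miR-25-3p, at -0.998, and miR-106b-5p, at -0.994, fell only just short of 2-fold lower. Quantile normalization turned the median over the 10 members to -0.080, the miR-17 seed median to -0.16 and the miR-19 seed median to -0.11. It moved the medians of miR-17-92 to 0.078, miR-106b-25 to -0.99, the miR-18 seed to 0.19 and the miR-92 seed to -0.24, and the gap between the clusters to -1.07. Subtracting the lowess trend turned the miR-19 seed median to -0.050. It moved the median over the members to 0.0097, miR-17-92 to 0.14, miR-106b-25 to -0.83, miR-106a-5p and the miR-17 seed to 0.018, the miR-18 seed to 0.16 and the miR-92 seed to -0.28. Leaving out miR-106a-5p turned the miR-17 seed median to -0.081, since 2 of the 4 remaining members are from each cluster. The direction of miR-19b-3p turned under the common 75th percentile (-0.017), quantile normalization (-0.37) and lowess (-0.10), and that of miR-20a-5p under quantile normalization (-0.16). The median of all probes past the floor, 0.025, turned to -0.019, -0.076 and -0.011 under those 3 scalings and to -0.0032 with no floor. The cause of these changes was not tested. No paired analysis was possible because each line has 1 array. Leaving out a replicate was not possible for the same reason, and no array gives an error for a single probe.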
